A study of Mus musculus with 6 samples.

Results

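The cytotoxic granule genes described here are 10 genes named by symbol, namely 5 granzymes (Gzma, Gzmb, Gzmc, Gzmk and Gzmm), perforin (Prf1), the granule membrane protein gene Nkg7, serglycin (Srgn), cathepsin W (Ctsw) and the granzyme inhibitor gene Serpinb9. All 10 were found among the 18193 genes of the array annotation, through 12 probe sets of the 45037 tested. They were chosen by symbol with the differences between the Tcf1-/- and Tcf1-/+ log2 values of these arrays already known, so those differences are a description and carry no test. RNA of early thymic progenitors, the first T-lineage cells in the thymus, was measured on Affymetrix whole-genome mouse arrays after sorting as Lin-CD44+CD25-kit+ cells of the first double-negative stage. There were 3 arrays of Tcf1-/- and 3 of Tcf1-/+ animals, all on the C57Bl/6 background, 10 weeks old, and the labels name no treatment. Tcf1 is a transcription factor that beta-catenin can bind and that acts early in T-cell development. The controls are Tcf1-/+ in the titles and wild type in another label, which leaves their genotype unsettled, and the nature of the Tcf1 allele and the number of animals behind an array are not given. Tcf7, which encodes Tcf1, was not analysed here, so the targeted gene gives no check of the labels.

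Cytotoxic lymphocytes store perforin and granzymes in secretory lysosomes, bound to the proteoglycan serglycin. On release perforin opens the target membrane and granzymes, which are serine proteases, cleave proteins inside the target, while intracellular serpins such as Serpinb9 protect the cell that makes them. In the mouse the gene of granzyme B lies in a cluster with chymase genes of mast cells, and mast cells, which carry Kit like early thymic progenitors, also store their proteases on serglycin and can make granzyme B.

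Values are log2 probe set summaries. A level of 5.21, the 95th percentile of 27 control probe sets for bacterial transcripts, was taken as background. The array labelled Tcf1-/- replicate 2 stood apart from the others. It correlated with the other 5 between 0.870 and 0.893 over all probe sets, and the other 10 pairs lay between 0.913 and 0.933. Differences that moved by over 1.5 times without it are given with and without it for genes above background. Kit and Cd44, which the gate selects, were above background on all 6 arrays, between 7.45 and 10.80 for Kit and between 9.60 and 10.39 for Cd44. Il2ra, which encodes the CD25 that the gate selects against, was also above background, between 9.22 and 10.97. Of the 13 gate and early progenitor genes, 10 had lower and 3 higher Tcf1-/- means, with a median of -0.50, and the list mean did not overlap, at 9.36 to 9.62 against 9.77 to 9.96. Flt3, a cytokine receptor of progenitors, differed by -1.53 (SE 0.42), Cd34 by -1.24 (SE 0.36), Bcl11a by -0.52 (SE 0.21) and Il7r, the interleukin 7 receptor gene, by 2.00 (SE 0.40), each without overlap and none past limma's adjusted threshold. Without Tcf1-/- replicate 2 the Kit difference of -1.36 became -0.58, that of Il2ra went from 0.69 to 0.34 and that of Cd44 from 0.12 to 0.32. The part of these progenitor genes in the granule gene differences was not tested. RNA came from whole sorted populations, so more cells of a kind and more RNA per cell cannot be told apart. Nothing beyond the word biological in the titles says that the arrays of a genotype came from separate animals, and errors and p-values measure the spread between these arrays.

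Granzymes B and A stood out from the other granule genes. Gzmb, the granzyme that activates caspases by cleaving after aspartate, was at 11.08, 9.59 and 10.78 on Tcf1-/- replicates 1, 2 and 3 and at 6.16, 5.38 and 7.73 on the Tcf1-/+ arrays. Every Tcf1-/- array lay above every Tcf1-/+ array, with 1.86 log2 units between the nearest arrays of the genotypes. The means were 10.48 ± 0.79 (SD, n = 3) and 6.42 ± 1.19 (SD, n = 3), a difference of 4.06 (SE 0.69, from limma as are all SEs of differences), or 16.7-fold on the linear scale. Without Tcf1-/- replicate 2 the difference was 4.51. Arrays also fell into a set of 3 with low levels of Y-linked genes (1 Tcf1-/- and 2 Tcf1-/+) and a set of 3 with high levels (2 Tcf1-/- and 1 Tcf1-/+), and the difference was 4.14 in the first set and 4.80 in the second.

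Gzma, a granzyme that cleaves after basic residues, was at 11.16, 7.53 and 12.00 on the Tcf1-/- arrays and at 7.13, 7.48 and 6.92 on the Tcf1-/+ arrays. It was high on Tcf1-/- replicates 1 and 3 alone. Replicate 2 lay 0.05 above the highest Tcf1-/+ array, a gap smaller than the spread of 0.28 (SD, n = 3) within Tcf1-/+. The means were 10.23 ± 2.38 (SD, n = 3) and 7.18 ± 0.28 (SD, n = 3), a difference of 3.05 (SE 1.14), and 4.40 (SE 0.35) without Tcf1-/- replicate 2. Of all genes with a genotype mean above background, 0.6% had a larger SD within Tcf1-/- than Gzma. In the arrays with low Y-linked levels the Gzma difference was 4.13, and in those with high levels, which hold replicate 2, it was 2.29.

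**Figure D1:**
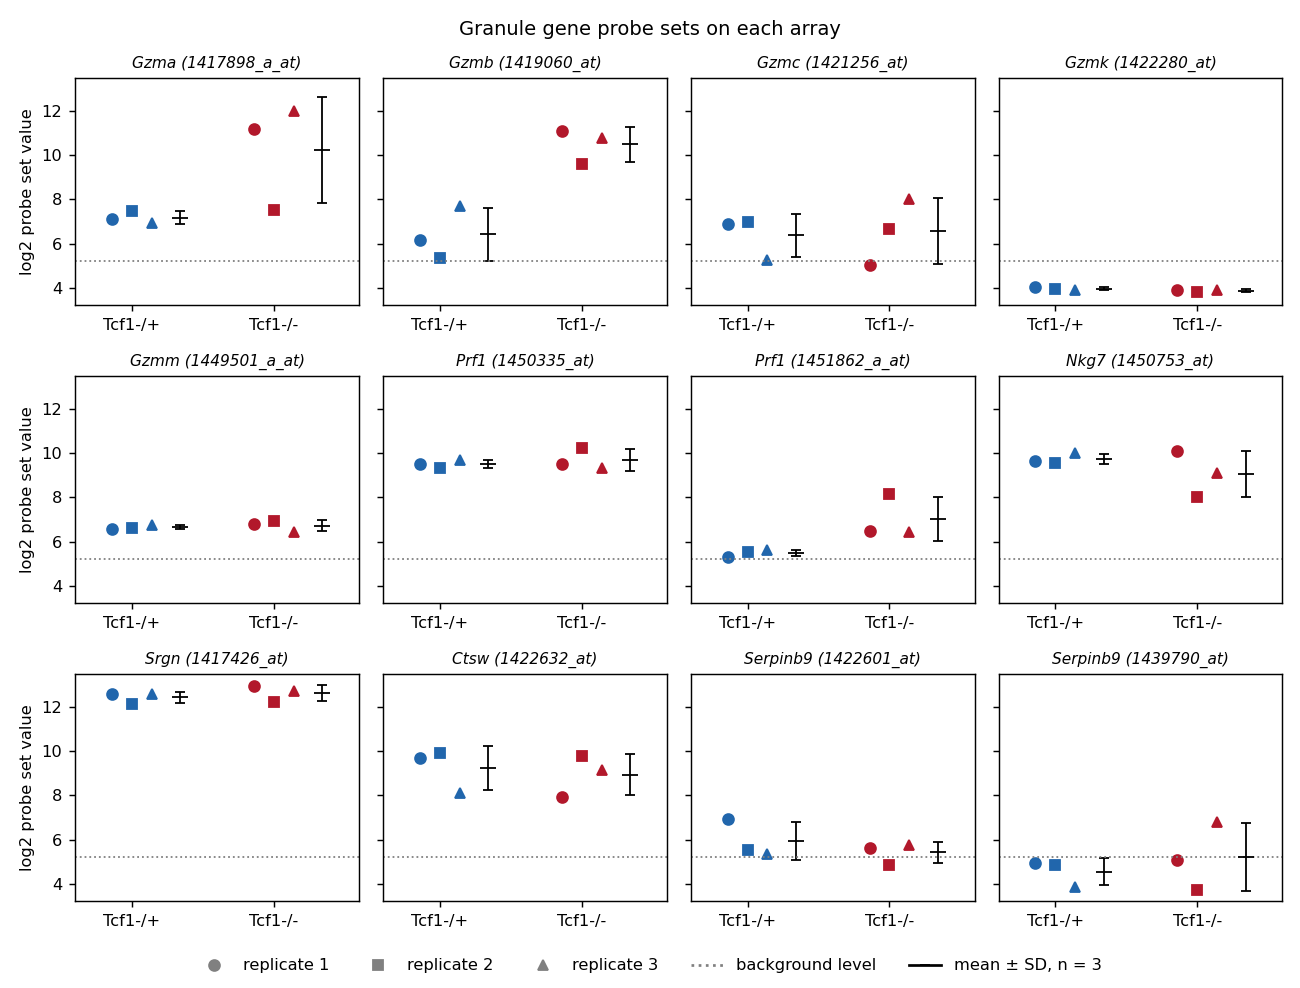
Log2 values (vertical axis) of the 12 probe sets of the granule genes on each array, by genotype, with replicates as marker shapes, the mean ± SD of 3 arrays beside them and the background level of 5.21 dotted. Gzmb is high on all 3 Tcf1-/- arrays and Gzma on 2 of them, while the brighter Prf1 probe set, Srgn and Gzmm lie at like levels in both genotypes.

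The other granzymes did not share this pattern. Gzmc, the direct neighbour of Gzmb on chromosome 14, was at 5.05, 6.66 and 8.0 on the Tcf1-/- arrays and at 6.89, 6.96 and 5.28 on the Tcf1-/+ arrays. The genotypes overlapped fully, since Tcf1-/- held both the highest and the lowest array, and the difference was 0.19 (SE 0.84), with a 95% confidence interval of -1.87 to 2.25. Gzmk, the direct neighbour of Gzma on chromosome 13, lay under background on all 6 arrays, between 3.81 and 4.07, so nothing can be said of its difference. Gzmm, a granzyme described in natural killer cells that cleaves after long aliphatic residues, lay between 6.44 and 6.94 on all arrays, with a difference of 0.07 (SE 0.21) and an interval of -0.45 to 0.59, or -0.03 without Tcf1-/- replicate 2.

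Perforin was above background on every array of both genotypes. Its brighter probe set was at 9.52, 10.24 and 9.31 on the Tcf1-/- arrays and at 9.50, 9.34 and 9.67 on the Tcf1-/+ arrays. Tcf1-/- replicate 2 was highest and replicate 3 lowest, so the genotypes overlapped, with a difference of 0.19 (SE 0.30) and an interval of -0.53 to 0.91. Without replicate 2 it was -0.09 (SE 0.22). The other Prf1 probe set gave another picture, at 6.49, 8.15 and 6.45 against 5.33, 5.56 and 5.62. There the genotypes did not overlap, and the difference was 1.53 (SE 0.49), or 0.96 (SE 0.21) without Tcf1-/- replicate 2. Which of the probe sets follows Prf1 mRNA was not tested.

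Genes for the granule matrix and membrane varied with the array more than with the genotype. Srgn, the scaffold of granule proteases in many blood cells, was at 12.93, 12.22 and 12.72 on the Tcf1-/- arrays and at 12.57, 12.13 and 12.56 on the Tcf1-/+ arrays. Replicate 2 was the lowest array within each genotype, and the difference was 0.20 (SE 0.27) with an interval of -0.46 to 0.86, or 0.40 (SE 0.25) without Tcf1-/- replicate 2. Nkg7, a membrane protein of cytotoxic granules needed for their release, was at 10.08, 8.03 and 9.08 against 9.66, 9.57 and 9.98. Both the highest and the lowest array were Tcf1-/-, and the difference of -0.67 (SE 0.52) became -0.15 (SE 0.37) without Tcf1-/- replicate 2. Ctsw, a cysteine protease of cytotoxic lymphocytes, was at 7.92, 9.75 and 9.15 against 9.67, 9.91 and 8.09. Each genotype held 1 array near 8 log2 units and 2 above 9, and the difference was -0.29 (SE 0.66), or -0.69 (SE 0.70) without Tcf1-/- replicate 2.

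Serpinb9, the intracellular inhibitor of granzyme B, lay near background. Its brighter probe set was at 5.64, 4.87 and 5.77 on the Tcf1-/- arrays and at 6.95, 5.53 and 5.36 on the Tcf1-/+ arrays, a difference of -0.52 (SE 0.50), or -0.24 (SE 0.54) without Tcf1-/- replicate 2. The other probe set differed by 0.65 (SE 0.79), or 1.38 (SE 0.62) without that array, and was above background on 1 array, Tcf1-/- replicate 3 at 6.79. The probe sets of Serpinb9 thus differed in sign, and the genotypes overlapped on both.

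**Figure D2:**
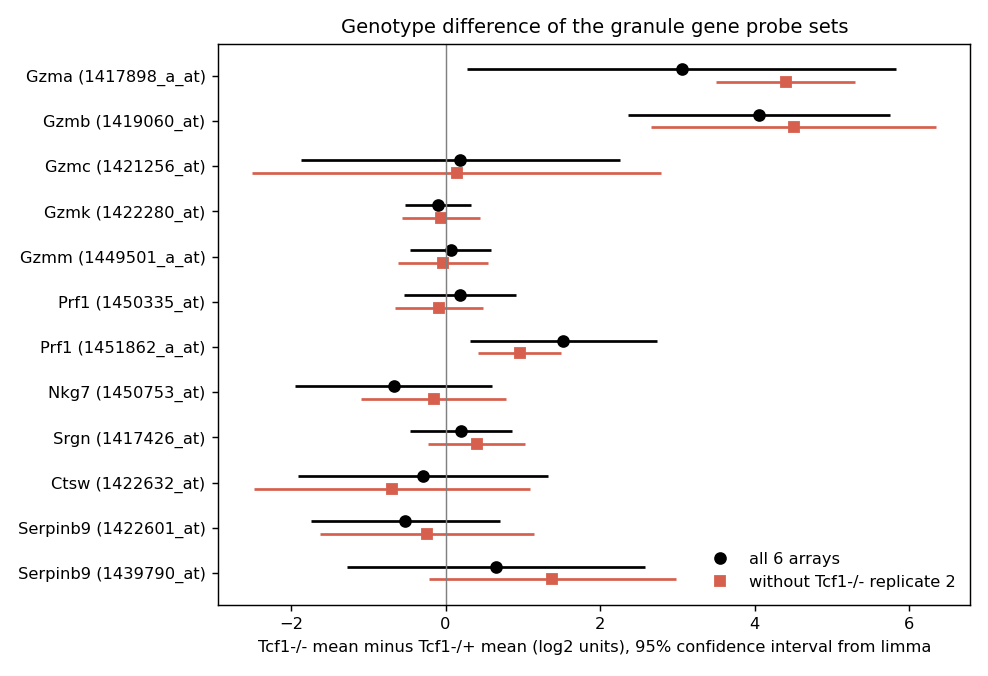
Difference of the Tcf1-/- and Tcf1-/+ means in log2 units (horizontal axis) with its 95% confidence interval from limma for each granule gene probe set, over all 6 arrays (circles) and without Tcf1-/- replicate 2 (squares). Gzmb and Gzma lie farthest to the right in both, at 4.06 and 3.05 over all arrays, and the dimmer Prf1 probe set lies at 1.53.

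Each gene taken by its brightest probe set, 6 of the 10 granule genes had a higher and 4 a lower Tcf1-/- mean, where 54.3% of all genes were higher. The genotypes did not overlap for 2 of the 10, Gzma and Gzmb, both higher in Tcf1-/-, beside 7.22% of all genes higher and 4.94% lower without overlap. Those 2 also differed by 1 log2 unit or more, as did 4.3% of all genes in that direction, and 0.176% of all genes were higher by 3 log2 units or more. The median difference of the 10 was 0.13, and 0.04 over all genes. Without Tcf1-/- replicate 2, 4 of the 10 had a higher Tcf1-/- mean, with a median of -0.05. By probe set, 3 of the 12 did not overlap, all higher in Tcf1-/-, beside 6.51% of all 45037. At an adjusted p of 0.05 limma passed 0% of all probe sets, the lowest adjusted p being 0.315, and 2917 (6.48%) had an unadjusted p under 0.05.

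How alike the genes ran over the 6 arrays was described by the root mean square difference between their log2 profiles, each centred on its own mean. Between Gzma and Gzmb it was 1.38 log2 units, and between Gzmb and the other 8 genes it lay between 2.03 for Srgn and 2.69 for Ctsw. Gzma was 1.88 from Srgn and 2.47 from Ctsw, with the others in between. The measure is small between any genes that vary little, as for Gzmm and Prf1 at 0.20, and large between a gene that varies much and a gene that varies little. The distances of Gzmb and Gzma from the other 8 genes thus also reflect how widely Gzmb and Gzma themselves ranged over the arrays, genotype included. Gzmc and Ctsw were 0.66 apart, and both were lowest on Tcf1-/- replicate 1. On Tcf1-/- replicate 2, Prf1 and Gzmm had their highest value of the 6 arrays and Nkg7 and Serpinb9 their lowest. The granule genes therefore had no common order of arrays within Tcf1-/-.

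Among all genes with a genotype mean above background, the profile nearest to Gzmb was that of Mcpt8 at 0.77. Its name is mast cell protease 8, and it is listed below with the mast cell and basophil markers. Next were St3gal6 at 0.96, Dach1 at 0.97, Susd2 at 1.00 and Ptprz1 at 1.02. Nearest to Gzma were Zfp93 at 0.76, the neutrophilic granule protein gene Ngp at 0.83, the tryptophan hydroxylase gene Tph1 at 0.86, Cd200r1 at 0.88 and Mcpt8 at 0.97. Mcpt8 was at 8.98, 8.05 and 10.22 on the Tcf1-/- arrays and at 6.12, 5.31 and 6.40 on the Tcf1-/+ arrays, with no overlap. Both lists were drawn over 6 arrays in which the genotype sets much of each profile.

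Promoter sequences of Gzma and Gzmb, which were higher in Tcf1-/-, and of Prf1 and Nkg7, which overlapped, are shown for comparison of their letters. They are from RefSeq on GRCm38.p6, which held windows for 9 of the 10 genes, and are written 5′ to 3′ on the strand of the gene. The Gzma stretch is chr13:113100982-113101231 (minus strand), that of Gzmb chr14:56262335-56262584 (minus), that of Prf1 chr10:61297586-61297750 (plus) and that of Nkg7 chr7:43436888-43437137 (plus). The Gzma, Gzmb and Nkg7 stretches are the 250 bases before the transcription start, while the Prf1 stretch has 165 bases and stops short of the start, its last marked word lying 92 to 87 bases before it. Capitals mark matches, on either strand, to short words known for Runx factors (TGTGGT), T-box factors (GTGTGA), AP-1 (TGANTCA), the cyclic AMP response element (TGACGT), TCF and LEF factors (CTTTGAA or CTTTGAT or CTTTGTA or CTTTGTT) and GATA factors (AGATAA or AGATAG or TGATAA or TGATAG).
Gzma: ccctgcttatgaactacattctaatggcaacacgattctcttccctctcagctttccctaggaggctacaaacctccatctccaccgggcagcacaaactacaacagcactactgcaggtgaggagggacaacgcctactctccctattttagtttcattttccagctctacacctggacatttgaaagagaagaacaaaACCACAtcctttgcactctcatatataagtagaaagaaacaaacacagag
Gzmb: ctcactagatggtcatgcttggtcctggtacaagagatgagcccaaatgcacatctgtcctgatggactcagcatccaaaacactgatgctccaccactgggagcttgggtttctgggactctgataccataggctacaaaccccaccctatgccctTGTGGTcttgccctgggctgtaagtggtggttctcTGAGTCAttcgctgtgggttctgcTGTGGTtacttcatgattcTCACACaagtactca
Prf1: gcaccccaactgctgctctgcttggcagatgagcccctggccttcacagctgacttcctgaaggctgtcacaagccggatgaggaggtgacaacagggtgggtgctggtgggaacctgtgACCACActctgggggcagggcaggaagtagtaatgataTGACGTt
Nkg7: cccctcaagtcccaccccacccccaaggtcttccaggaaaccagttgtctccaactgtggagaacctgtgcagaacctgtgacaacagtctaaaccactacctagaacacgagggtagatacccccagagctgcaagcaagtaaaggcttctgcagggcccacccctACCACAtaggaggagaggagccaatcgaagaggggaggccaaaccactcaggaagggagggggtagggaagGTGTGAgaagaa

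The Runx word was the one that these 4 stretches shared. Gzmb held it 2 times, beginning 93 and 34 bases before the start, and Gzma 1 time, beginning 50 bases before it. It was in 7 of the 11 windows that RefSeq gives for 9 of the granule genes, and in 14% of the 32851 windows of the same 250 bases over all genes. The Gzmb stretch also held the AP-1 word, found in 6.75% of all windows, and the T-box word, found in 12.3% and also in Nkg7. The word of the cyclic AMP response element was in Prf1 and in 6.47% of all windows. The TCF and LEF words were in the windows of Gzmk, Gzmm and Serpinb9, 3 of the 11, and in 14.8% of all windows, and GATA words were in 1 of the 11, a Gzmm window, and in 26.5% of all. No marked words overlapped in the printed stretches. These are matches of letters, and binding was not measured.

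The cluster on chromosome 14 that ends with Gzmb holds 15 annotated protease genes with no other protein-coding gene between them, of which 13 were measured. They are granzymes, mast cell proteases, the chymase gene Cma1 and the cathepsin G gene Ctsg. The cluster was looked at after values had been seen. All 13 had higher Tcf1-/- means, but these include Gzmb and Gzmc, which were chosen with that difference known. The 11 without them were all higher too, beside 54.3% of all genes. Of the 11, Gzmd, Gzme, Gzmf, Gzmg and Gzmn, which lie between Ctsg and Gzmc, were under background in both genotypes. They differed by 0.03 to 0.14, so nothing can be said of their differences. Of the 6 others that are not granule genes of the list above, the genotypes did not overlap for Mcpt1, Mcpt2 and Mcpt8, beside 7.22% of all genes higher without overlap.

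Mcpt1, a chymase of mucosal mast cells, was at 10.73, 9.54 and 11.64 on the Tcf1-/- arrays and at 8.26, 7.09 and 3.10 on the Tcf1-/+ arrays, a difference of 4.49 (SE 1.38) that the low value of Tcf1-/+ replicate 3, under background, enlarges. Mcpt2, also of mucosal mast cells, differed by 2.44 (SE 0.65) and Mcpt8 by 3.14 (SE 0.60), and their adjusted p from limma were 0.597 and 0.444. Cma1 at 1.18 (SE 0.68), Ctsg at 0.72 (SE 1.00) and Mcpt4 at 0.56 (SE 0.85) overlapped between genotypes, and without Tcf1-/- replicate 2 Mcpt4 differed by 1.32. The cluster thus held its largest differences at Gzmb, Mcpt1, Mcpt2 and Mcpt8, while Gzmc, beside Gzmb, differed by 0.19.

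**Figure D3:**
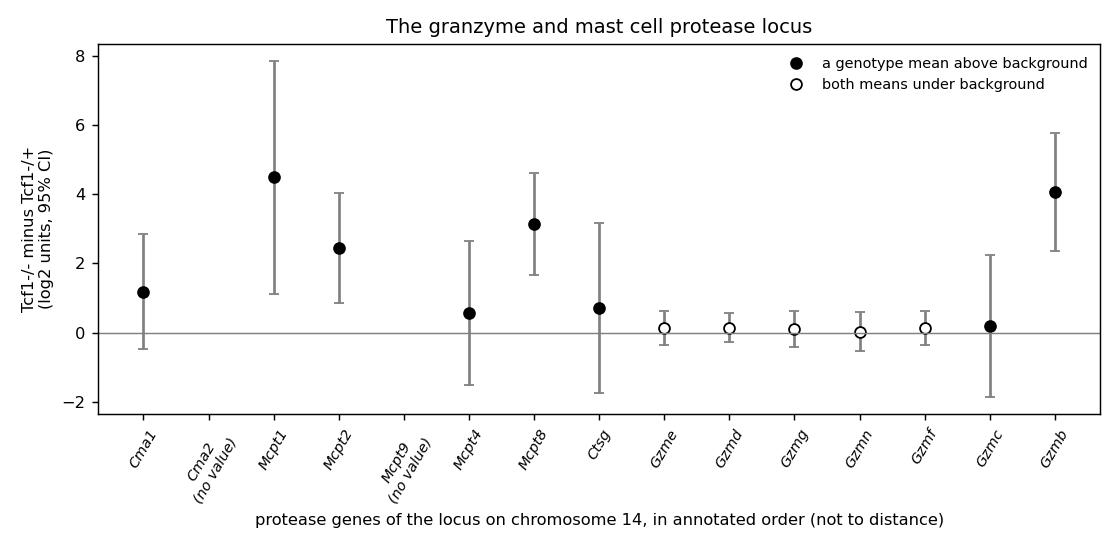
Difference of the Tcf1-/- and Tcf1-/+ means in log2 units with 95% confidence intervals from limma (vertical axis) for protease genes of the chromosome 14 cluster in their annotated order, with genes under background in both genotypes as open circles. Gzmb at the right end and Mcpt1, Mcpt2 and Mcpt8 on the left lie at 2.44 or above, and the granzymes between them near 0.

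Markers of mast cells and basophils had higher Tcf1-/- means, as Gzma and Gzmb did. All 13 measured of 14 listed had a higher mean in Tcf1-/-, beside 54.3% of all genes, with a median difference of 1.29 against 0.04. The genotypes did not overlap for 5 of them, the 3 proteases above, Cpa3 and Tpsab1, beside 7.22% of all genes higher without overlap, while the other 8 overlapped and 0 passed limma's adjusted threshold. Of the 13, 5 are genes of the chromosome 14 cluster. The mean log2 level of the list in Tcf1-/- was 8.67, 7.75 and 9.35, against 7.02, 6.98 and 6.95 in Tcf1-/+, without overlap, and it was lowest within Tcf1-/- on replicate 2, where Gzma and Gzmb were lowest too. Mcpt2, Cma1 and the tryptase gene Tpsb2 were instead lowest within Tcf1-/- on replicate 1.

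Cpa3, the carboxypeptidase of mast cells, was at 11.60, 10.86 and 12.21 on the Tcf1-/- arrays and at 10.60, 10.26 and 10.53 on the Tcf1-/+ arrays, and so was far above background in both genotypes. Some other genes of the list differed between arrays of the same genotype. Ms4a2, the beta chain of the high-affinity IgE receptor, was at 10.25, 5.36 and 9.77 on the Tcf1-/- arrays and at 4.64, 7.01 and 8.53 on the Tcf1-/+ arrays. Gata2, a transcription factor of mast cells and progenitors, was at 9.68, 6.72 and 10.30 against 7.10, 7.27 and 8.46. Fcer1a, the alpha chain of that receptor, was at 7.18, 4.91 and 7.34 against 5.43, 3.34 and 6.53. Like Gzma and Gzmb, these 3 genes were higher on Tcf1-/- replicates 1 and 3 than on replicate 2. Within Tcf1-/+ they were highest on replicate 3, as was Gzmb, while Gzma was lowest there. Low values on Tcf1-/- replicate 2 were not particular to these genes. Of the lists below, the neutrophil granule, exocytosis and mature T-cell means were also lowest within Tcf1-/- there, at 7.33, 8.53 and 6.07. The NK cell, plasmacytoid dendritic cell, serpin, regulator and effector means were highest there. Without Tcf1-/- replicate 2 the differences went from 1.73 to 3.28 for Ms4a2, from 1.29 to 2.38 for Gata2 and from 1.38 to 2.16 for Fcer1a. Kit was at 9.99, 7.45 and 9.60 against 10.80, 10.50 and 9.83. Mrgprb1, a receptor of connective tissue mast cells, was under background on all 6 arrays. The part of mast cells or basophils in the Gzma and Gzmb differences was not tested.

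**Figure D4:**
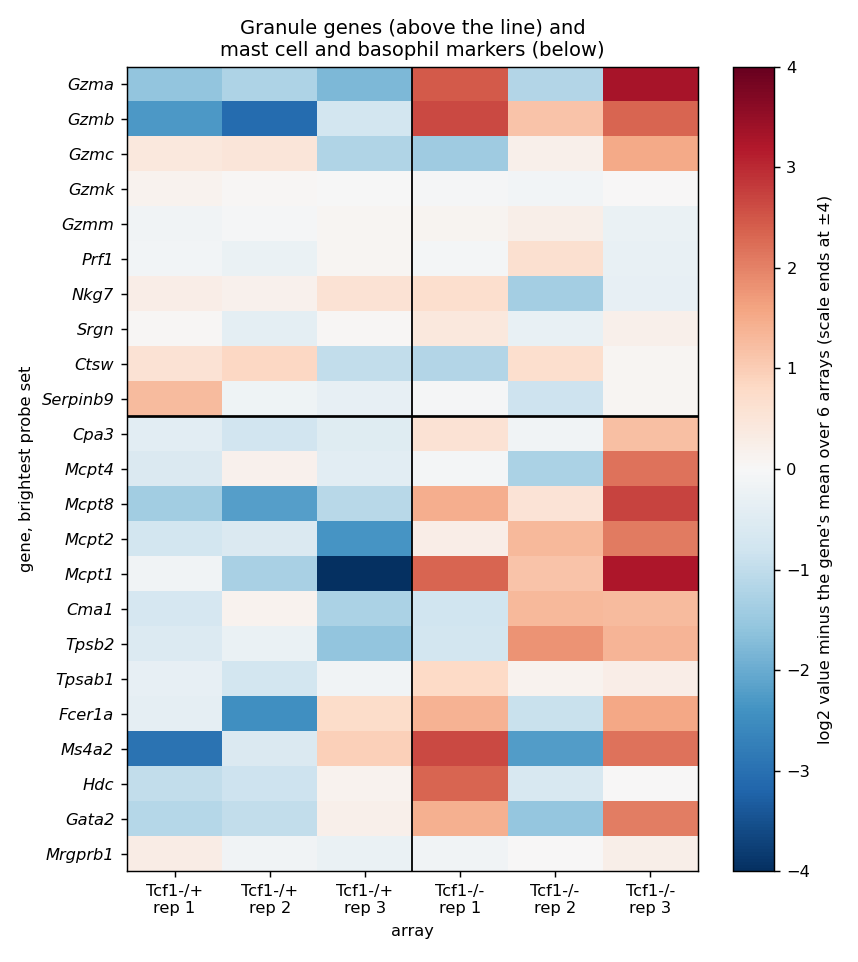
Log2 value of each gene minus its mean over the 6 arrays (colour, with the scale ending at 4 log2 units in either direction) for the 10 granule genes above the line and 13 mast cell and basophil markers below it, with 1 column for each array. Gzma, Gzmb, Mcpt8 and Mcpt1 are red on Tcf1-/- replicates 1 and 3 and blue or pale on the Tcf1-/+ arrays, and the rows from Gzmk to Srgn stay pale apart from Nkg7.

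Natural killer cell markers did not follow Gzmb and Gzma. Of 15 measured, 7 had higher and 8 lower Tcf1-/- means, with a median difference of -0.03, and both means were under background for 7 of them, Ncr1 included. Klrd1, a chain of NK receptors, was at 6.88, 5.16 and 6.95 on the Tcf1-/- arrays and at 7.38, 8.61 and 7.48 on the Tcf1-/+ arrays, lower without overlap, a difference of -1.49 (SE 0.60), or -0.90 without Tcf1-/- replicate 2. Il2rb, a receptor chain for interleukins 2 and 15, differed by 2.36 (SE 0.90), Klrk1 by 1.26 (SE 0.86) and Itga2 by -0.46 (SE 0.33), and the genotypes overlapped for each. Without Tcf1-/- replicate 2 the Klrk1 difference was 0.42, that of Itga2 -0.69 and the median of the list 0.06. The mean level of the list overlapped between genotypes, at 5.55 to 6.29 in Tcf1-/- and 5.51 to 6.09 in Tcf1-/+.

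Of 13 mature T-cell markers, 9 had lower and 4 higher Tcf1-/- means, beside 54.3% of all genes higher, with a median of -1.06. Cd28, a costimulatory receptor, differed by -2.97 (SE 0.69), the adhesion molecule gene Cd2 by -2.40 (SE 0.65), Cd3e by -1.66 (SE 0.55) and Cd5 by -1.12 (SE 0.38), and 0 of the 13 passed the adjusted threshold. The 4 with higher means were Ccr7 at 1.40 (SE 0.65), Lat at 0.56 (SE 0.39), Cd8a at 0.46 (SE 0.56), each with overlap, and Cd8b1, under background. Without Tcf1-/- replicate 2 Ccr7 differed by 0.76 and Cd8a by 0.78. The list mean was 6.07 to 6.46 in Tcf1-/- and 6.66 to 7.64 in Tcf1-/+, without overlap. The part of mature T cells in these differences was not tested. Neutrophil granule markers had higher means for 10 of 11, beside 54.3% of all genes, with a median of 0.92 against 0.04. Their list mean overlapped, at 7.33 to 9.03 against 6.18 to 8.36. Without Tcf1-/- replicate 2 all 11 were higher, with a median of 1.28. Among them Ngp differed by 1.95 (SE 0.77) and S100a8, an alarmin subunit, by 2.64 (SE 1.14), and Mpo, the myeloperoxidase gene, by -0.07 (SE 0.45), or 0.29 without Tcf1-/- replicate 2. Of 10 plasmacytoid dendritic cell markers, 5 were higher and 5 lower, with a median of 0.02, and without Tcf1-/- replicate 2 there were 3 higher, with a median of -0.18. Irf8, a transcription factor of these cells, differed by -1.17 (SE 0.55), Ly6d by -0.53 (SE 0.28) and Tcf4 by -0.39 (SE 0.28). Klk1 differed by 0.93 (SE 0.52), or 0.45 without Tcf1-/- replicate 2, and the genotypes overlapped for each of them.

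The machinery that releases granules differed little as a group. Of 18 measured exocytosis genes, 9 had higher and 9 lower Tcf1-/- means, with a median of 0.02, and 0 passed the adjusted threshold. Snap23, a membrane fusion protein, was at 11.47, 12.25 and 11.43 on the Tcf1-/- arrays and at 10.57, 10.45 and 11.32 on the Tcf1-/+ arrays, higher by 0.94 (SE 0.35) without overlap. Kif5b, a motor protein, also did not overlap and differed by 0.67 (SE 0.29). Stx11, a syntaxin that perforin secretion needs, differed by 1.98 (SE 0.72) and Lyst, which controls the size of lysosome-related organelles, by -2.43 (SE 1.08), both with overlap. Unc13d, which primes granules for fusion, was at 7.62, 6.27 and 7.24 against 6.54, 10.00 and 7.54, a difference of -0.99 (SE 0.92), and Rab27a, which docks them, differed by 0.10 (SE 0.61). Without Tcf1-/- replicate 2 the Lyst difference was -1.41, that of Unc13d -0.60 and that of Rab27a -0.33, and 11 of the 18 genes had higher means, with a median of 0.09.

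Of 16 lysosomal proteases, cystatins and maturation genes, 9 had higher and 7 lower means, with a median of 0.15. Ctsc, the protease that activates granzymes by removing their propeptide, was at 8.23, 7.38 and 9.25 on the Tcf1-/- arrays and at 8.75, 9.14 and 9.18 on the Tcf1-/+ arrays, a difference of -0.74 (SE 0.48), or -0.28 without Tcf1-/- replicate 2. Ctss, a protease of antigen-presenting cells, differed by 1.48 (SE 0.30) and Furin, a proprotein convertase, by 1.14 (SE 0.34), both without overlap, while Ctsd differed by 0.68 (SE 0.43), or 0.36 without that array, and the median of the list was then 0.27. Of 9 further serpins measured, 6 were under background in both genotypes. Serpinb6b, which neighbours Serpinb9, differed by 0.61 (SE 0.25) without overlap, Serpinb6a by 1.12 (SE 0.69) and Serpinb1a by 0.18 (SE 0.33), the last 2 moving to 0.59 and 0.30 without Tcf1-/- replicate 2.

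Regulators of cytotoxic genes were mixed, with 10 of 19 higher and 9 lower and a median of 0.06. Id2, an antagonist of E proteins, was at 10.26, 11.36 and 10.22 on the Tcf1-/- arrays and at 7.49, 8.12 and 6.65 on the Tcf1-/+ arrays, and Lef1, a relative of Tcf1, differed by -0.91 (SE 0.19), both without overlap. Hopx differed by -0.57 (SE 0.24), also without overlap, and Bhlhe40 by 1.92 (SE 0.81), with overlap and with 1.19 without Tcf1-/- replicate 2. Tbx21 and Eomes, the T-box factors of effector lymphocytes, differed by -0.05 (SE 0.32) and -0.75 (SE 0.68). Tbx21 was above background on 1 array, Tcf1-/+ replicate 1 at 5.47, and Eomes on Tcf1-/- replicate 2 at 5.26 and Tcf1-/+ replicate 2 at 7.10. Prdm1 was under background on all 6 arrays. Runx3, a Runx factor of cytotoxic cells, was at 9.85, 10.76 and 9.69 against 9.21, 10.22 and 8.76, a difference of 0.71 (SE 0.48) with overlap, or 0.38 without Tcf1-/- replicate 2.

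Of 15 genes listed as other effectors, 10 had higher and 5 lower means, with a median of 0.38. The genotypes did not overlap for 4, all higher in Tcf1-/-, beside 7.22% of all genes. Fgl2, a membrane prothrombinase and secreted immune regulator, was at 8.48, 11.45 and 9.83 on the Tcf1-/- arrays and at 5.17, 6.45 and 5.48 on the Tcf1-/+ arrays. Lta, the lymphotoxin alpha gene, differed by 2.01 (SE 0.55) and Fasl, a death ligand of cytotoxic cells, by 0.68 (SE 0.27). Cd7, a surface receptor gene and not an effector in the narrow sense, differed by 1.33 (SE 0.36). Ifng, the interferon gamma gene, was under background on all 6 arrays. None of the genes of these lists passed limma's adjusted threshold.

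**Figure D5:**
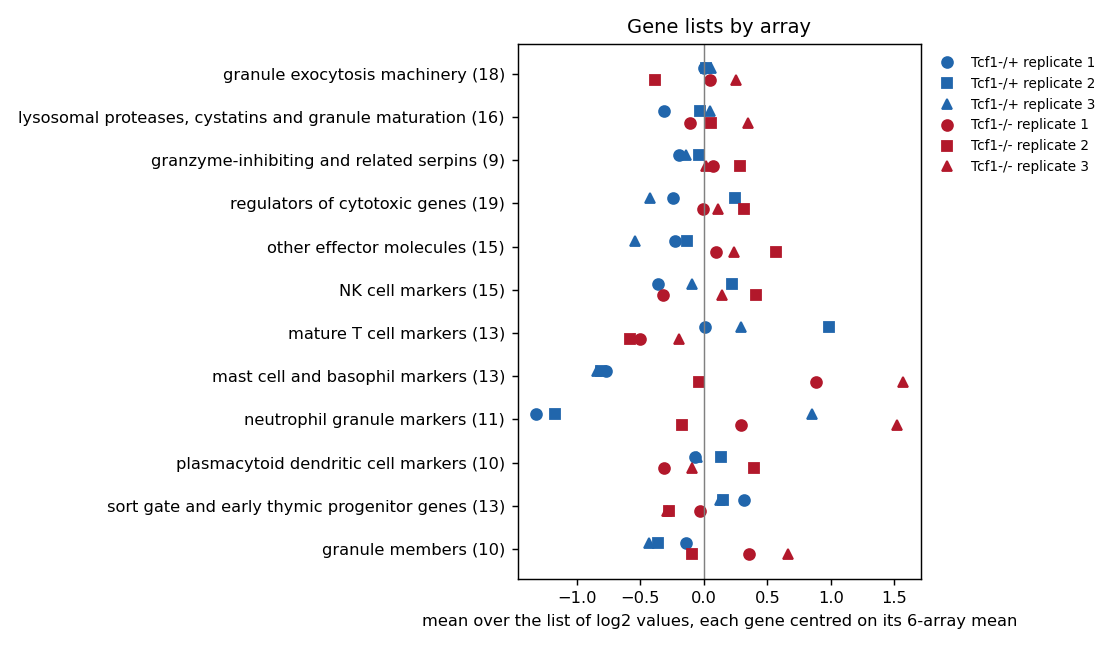
Mean over each gene list of log2 values, each gene centred on its mean over 6 arrays (horizontal axis), for the 3 Tcf1-/+ arrays (blue) and the 3 Tcf1-/- arrays (red), with the number of genes measured in brackets. The mast cell and basophil list, the mature T-cell list and the effector list are among those that do not overlap between genotypes, and the NK cell, exocytosis and regulator lists do.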

How the data were processed

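RNA of 6 sorted progenitor samples was measured on 1-colour arrays after whole-transcriptome amplification of nanogram amounts with the Ovation Pico WTA kit, per the labels' protocols. The authors deposited log2 values per probe set; their summary and normalization methods are not given in the sources used here. That they are log2 was judged by their range, 2.15 to 14.8, and by array medians of 5.80 to 5.86. Values were used as deposited. The 64 control probe sets were left out. Symbols came from the platform annotation, which gave 1 symbol to 34945 probe sets, several to 932 and none here to 9160. For probe sets with 1 symbol, the RefSeq symbol of the same gene identifier was used where RefSeq held it. Those with several name no gene. The probe set with the highest 6-array mean stands for its gene.

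The genotype contrast was fitted by lmFit and eBayes of limma 3.58.1 under R 4.3.3, two-sided and without covariates, adjusted by Benjamini-Hochberg over all 45037 probe sets with a threshold of 0.05. The fit was tested on simulated data. Arrays have no read depth, so their number limits the precision, and 3 against 3 cannot give an exact permutation p under 0.1. Groups came from the titles.

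Members, gene lists and alternatives were chosen with earlier results of these data known. All 10 members are named. Each list names up to 4 genes of smallest unadjusted p with a mean above background, and the genes of the sort gate. Mcpt4, Cma1, Tpsab1, Tpsb2, Fcer1a, Ctsg, Ms4a2, Gata2, Mrgprb1, Ncr1, Ccr7, Lat, Cd8a, Cd8b1, Mpo, Unc13d, Rab27a, Tbx21, Eomes, Prdm1, Runx3, Ifng and the further granzymes were added after their values were seen. The alternatives were a replicate block, quantile normalization, a floor and a filter at background, eBayes with trend and robust, array weights, a Y-linked covariate, each array left out and the mean of all probe sets of a gene. Arrays of low and of high Y-linked level alone were added after seeing the data.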

Additional observations from a re-analysis of the deposited data

How the results depend on the processing

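Gzmb and Gzma were higher in Tcf1-/- under all 16 alternatives each, by 3.54 to 4.80 and by 2.17 to 4.40 log2 units. Their genotypes did not overlap, so leaving arrays out could change the size of these differences but not their sign. The block, floor, filter, trend and probe set mean settings gave the main values of 4.06 and 3.05 again. Srgn also kept its sign, between 0.05 and 0.40, and Gzmk, under background, lay between -0.14 and 0. Signs turned for Gzmc under 4 alternatives (-1.04 to 0.95), for Prf1 and Ctsw under 2 each (-0.09 to 0.86 and -0.96 to 0.22), and for Gzmm, Nkg7 and Serpinb9 under 1 each (-0.03 to 0.21, -1.18 to 0.26 and -0.81 to 0.06). The mean of both Prf1 probe sets gave 0.86. The number of members with a higher Tcf1-/- mean lay between 4 and 7, lowest without Tcf1-/- replicate 2. With the replicate number as a block, 6 members were higher and 0 probe sets passed the adjusted threshold, with 3074 at an unadjusted p under 0.05, against 2917 without it. Same-numbered arrays deviated together with correlations of 0.01 to 0.04. Of the 6 arrays, 3 correlated best with the same-numbered array of the other genotype. Deviations from means of 3 arrays cannot decide whether the numbers pair the arrays, and the labels do not say. Limma called 0 probe sets and 0 list genes under the main setting and all 13 alternatives fitted. Values near the background level of 5.21 limit Gzmc, Gzmk, Serpinb9 and the dimmer Prf1 probe set.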
